A study of Rattus norvegicus with 8 samples.

Results

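Mitosis and the G2 phase before it are run by a set of genes that a dividing cell switches on together late in the cell cycle. The 34 genes listed here are members of that set, and they were found on the arrays by their symbol: a member is every non-control spot whose gene name equals a listed symbol. Of the 34 members, 33 had such a spot, on 49 probes, and all 33 were among the 15651 genes tested. Cenpe, the kinetochore motor, had no spot under its symbol and is named only.

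Entry into mitosis depends on CDK1, a kinase that works only when bound to a cyclin and after the phosphatase CDC25C has removed its inhibitory phosphates. FOXM1, together with the MuvB complex, drives transcription of the cyclins and of many other G2/M genes. Aurora and Polo-like kinases then build the spindle, the checkpoint proteins hold back division until every kinetochore is attached, and the anaphase-promoting complex ends mitosis by having cyclins and securin degraded. Most tissue macrophages are outside the cell cycle, whereas a macrophage line divides in culture.

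The cells were NR8383, a macrophage line established from the lung lavage of a normal rat, which grows partly attached and partly floating. Total RNA was compared between a low passage number, passage 20 (P20), and a high one, passage 200 (P200), with 4 arrays per group, 8 in all. The labels name no treatment or genetic change in either group, and the same serum medium for both. The labels call the 4 samples of a group biological replicates and do not say whether they came from separate thaws or flasks kept apart, so p-values measure the spread between these samples. The study is thus a comparison within 1 line, and the passage history between passage 20 and passage 200 is not given. Each value below is the log2 of the Agilent processed signal less the 75th percentile of its array, called the level here. A level of 0 lies at that percentile, and levels of different probes are not comparable with each other.

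On each array 51.0% to 54.5% of the non-control spots were well above background, with 0 saturated. All 8 arrays lay on 1 slide and were read in 1 scan. Of 12 macrophage markers 11 were well above background on all 8 arrays, against 0 of 8 for lung epithelium and 0 of 5 measured for lymphocytes. Of the 5 endothelial and 6 fibroblast markers, 3 and 2 were above background on all 8 arrays, while 2 and 4 were above it on none.

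Promoter sequence was not used in the choice by symbol. In genes of this class a CHR element (cell cycle genes homology region) binds the MuvB complex, and CCAAT boxes bind NF-Y. RefSeq promoters on assembly GRCr8, from 250 bases before to 50 bases after the annotated start, were held for 29 of the 34 members. The letters TTTGAA for the CHR element and CCAAT for the box were searched on both strands. A CHR match was present in 22 of the 29 promoters (75.9%), against 18.3% of all 33469 promoters of the same length and 12.3% of the 8851 promoters held for genes in the fit. CCAAT was present in 21 (72.4%), against 37.5% of all promoters and 38.8% of those of genes in the fit. Both motifs stood in 17 member promoters (58.6%), against 7.41% of all promoters and 5.28% of those of genes in the fit. The 26 CHR matches had a median position of -26.5 relative to the start (base 0), and the 52 CCAAT matches one of -116.5. Aurka, Bub1 and Kif2c held neither motif. The 100 promoters of other mitotic genes held the CHR element in 43%, CCAAT in 58% and both in 30%. A match is a run of letters only and was not tested as a binding site.

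Shown first are the promoters of Cdk1 and Ccnb2, whose products form a mitotic kinase, then Birc5, which had the lowest change of the members, and Mki67, the proliferation marker read by the most probes. Each line gives the 250 bases before the annotated start, 5′ to 3′ on the gene's strand, with CHR and CCAAT matches in capitals (ATTGG is CCAAT on the other strand). The stretches lie at chr20:19265043-19265292 (plus strand), chr8:79981659-79981908 (minus strand), chr10:103571896-103572145 (plus strand) and chr1:199952594-199952843 (minus strand) on GRCr8.
Cdk1: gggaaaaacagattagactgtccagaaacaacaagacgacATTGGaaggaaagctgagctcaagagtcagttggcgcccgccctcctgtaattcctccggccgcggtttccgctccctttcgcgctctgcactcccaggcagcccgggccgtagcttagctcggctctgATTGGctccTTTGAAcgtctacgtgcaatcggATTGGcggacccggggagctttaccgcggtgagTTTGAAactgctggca
Ccnb2: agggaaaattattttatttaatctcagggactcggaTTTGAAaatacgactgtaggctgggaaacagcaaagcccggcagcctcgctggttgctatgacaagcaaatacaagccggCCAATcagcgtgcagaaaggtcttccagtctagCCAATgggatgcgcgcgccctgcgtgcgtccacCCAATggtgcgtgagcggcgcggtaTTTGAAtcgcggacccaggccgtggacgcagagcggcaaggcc
Birc5: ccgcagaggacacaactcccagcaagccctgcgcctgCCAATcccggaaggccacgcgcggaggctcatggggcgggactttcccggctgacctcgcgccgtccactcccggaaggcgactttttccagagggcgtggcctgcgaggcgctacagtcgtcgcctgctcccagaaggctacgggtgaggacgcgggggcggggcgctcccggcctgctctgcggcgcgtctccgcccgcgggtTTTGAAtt
Mki67: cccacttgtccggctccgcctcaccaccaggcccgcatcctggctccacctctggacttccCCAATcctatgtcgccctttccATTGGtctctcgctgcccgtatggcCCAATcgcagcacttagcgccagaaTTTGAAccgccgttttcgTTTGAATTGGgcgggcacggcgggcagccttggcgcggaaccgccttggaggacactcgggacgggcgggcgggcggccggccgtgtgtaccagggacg
In Cdk1 there are CHR matches at positions -72 and -16, and in Birc5 there is 1 at -8. Ccnb2 holds 3 CCAAT boxes, between -134 and -68, and CHR matches at -214 and -43. In Mki67 the CHR match at -99 overlaps a CCAAT box on the other strand at -94.

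**Figure D1:**
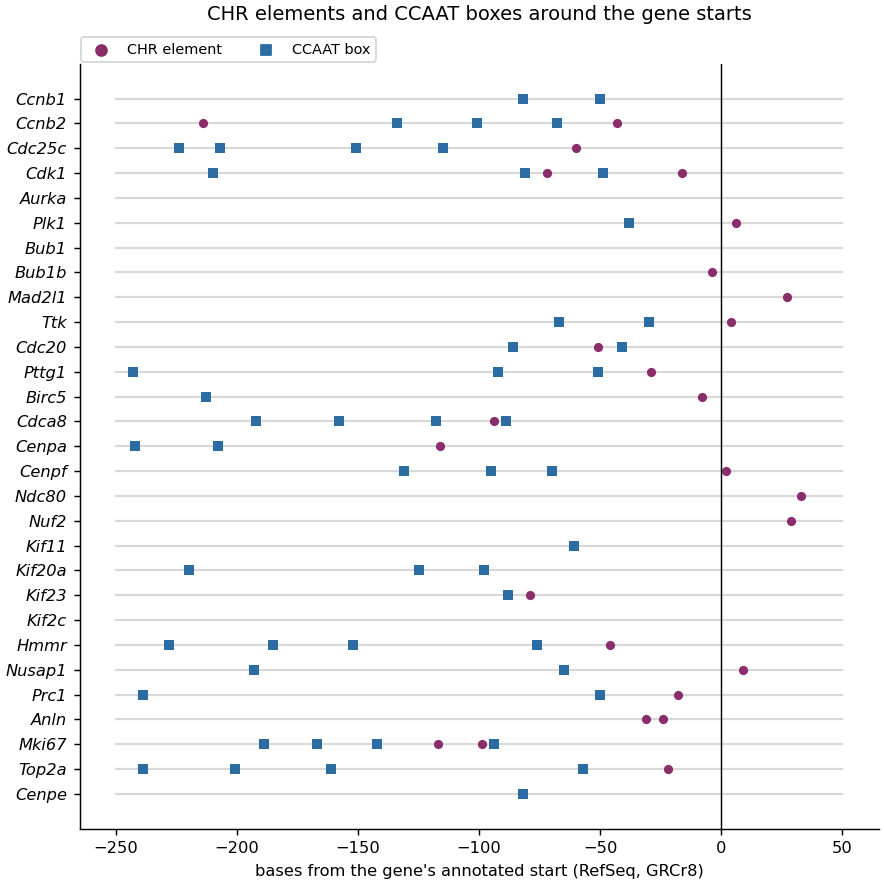
Positions of the CHR element (circles) and the CCAAT box (squares) in the 29 member promoters held, from 250 bases before to 50 after the annotated start (0, vertical line), 1 row per gene. CHR matches cluster near the start, with a median position of -26.5, and CCAAT boxes lie upstream of it, with a median of -116.5.

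How far long culture of the line goes along with a different level of the division program is the question the passages can answer. None of the 33 measured members passed the test (limma, Benjamini-Hochberg adjustment over all 15651 genes, adjusted p under 0.05), while 11.5% of all genes did. No member had an unadjusted p under 0.05, against 23.8% of all genes. In no member did the 4 arrays of one passage lie above the 4 of the other, against 19.6% of all genes (9.49% with P200 above and 10.1% with P200 below). Each gene was read here by its brightest probe. On that reading the lowest unadjusted p was that of Aurka, at 0.0508 (limma), with an adjusted p of 0.212. In a fit of single probes, added after the data were seen, 2 of the 49 member probes were called, against 10.8% of all probes. Groups did not overlap in 3 member probes, against 18.9% of all probes. The median log2 change, P200 over P20, was -0.03 over the 33 members and 0.00 over all genes, with 15 members positive and 18 negative. RNA of a whole culture was measured, so the share of dividing cells and the RNA per dividing cell cannot be told apart.

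A missed threshold does not show equal expression, so the 95% interval of each change was set against fixed bounds. The tightest, called the 25% bound here, runs from a fall of 20% to a rise of 25%. Each gene was read by its brightest probe. For 28 of the 33 members the whole interval lay within the 25% bound, a share of 84.8% against 40.9% of all genes. For 32 of 33 it lay within 1.5-fold and within 2-fold, where the shares of all genes were 78.3% and 92.8%. Genes with a mean level above 0 had a median half-width of the interval of 0.19 (log2), against 0.22 over all genes. Among these 9663 genes 55.2% had an interval within the 25% bound, against 24 of the 28 members with such a level (85.7%). The largest fold still inside a member's interval had a median of 1.19, against 1.29 over all genes. These intervals are pointwise, and the exclusion holds for each gene on its own and only for the probe read. Bub1b, Cdc25c and Mad2l1, counted among the 28, each had a dimmer probe whose interval reached past the 25% bound on 1 side of zero. In the fit of single probes these intervals were 0.19 to 0.66 for Bub1b, -0.59 to -0.15 for Cdc25c and -0.47 to -0.09 for Mad2l1.

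**Figure D2:**
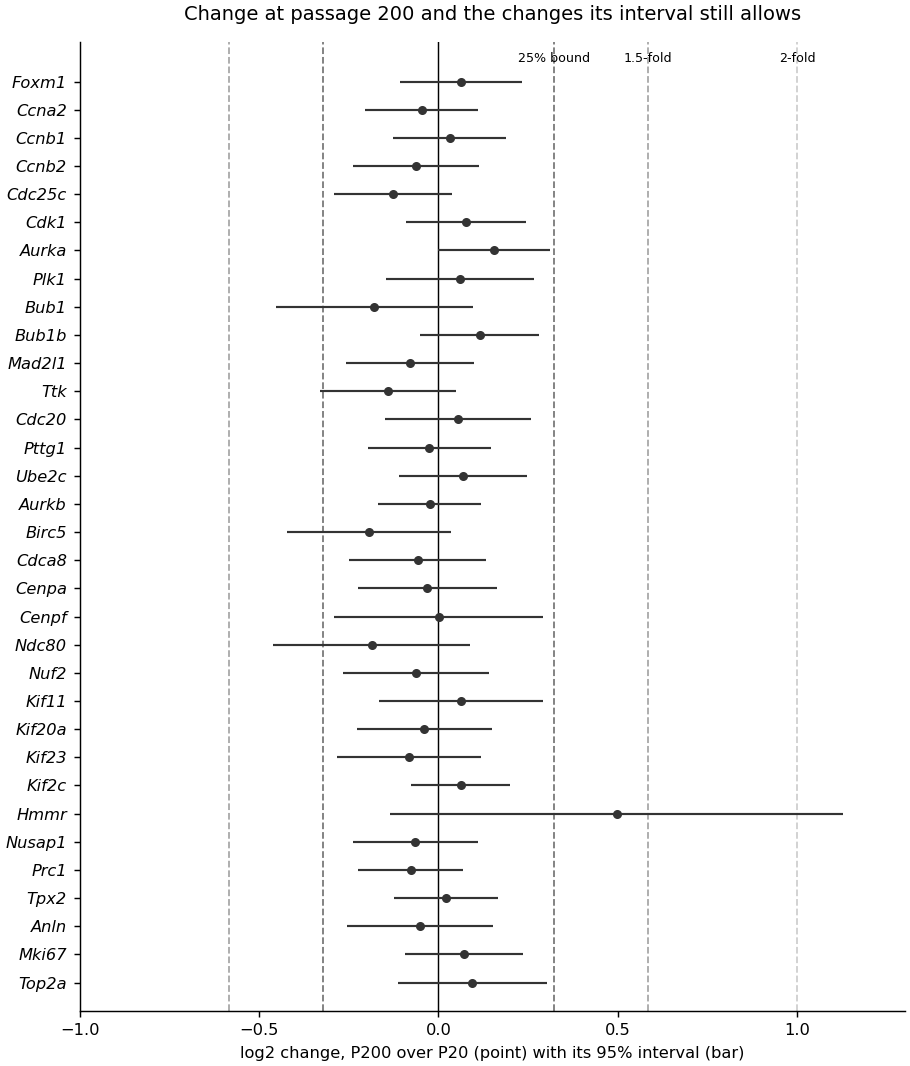
The log2 change of each member, P200 over P20 (points), with its 95% interval from limma (bars), in the order of the members' roles; dashed lines mark the 25% bound and 1.5- and 2-fold either way. Each member is read by its brightest probe. Of the 33 intervals 28 stay inside the 25% bound, and that of Hmmr reaches past 2-fold.

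The interval depends on the reference to which each array is centred. With the median of all probes as the reference, which lies near background, the median SD of the members between arrays went from 0.10 to 0.35. Then 15 intervals lay within 1.5-fold and 0 within the 25% bound, with no member called. With the median of the probes above background, tried after the data were seen, 28 lay within the 25% bound and 32 within 1.5-fold. With the row of the slide as a block 22 lay within the 25% bound, and with no filter on dim probes 21.

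**Figure D3:**
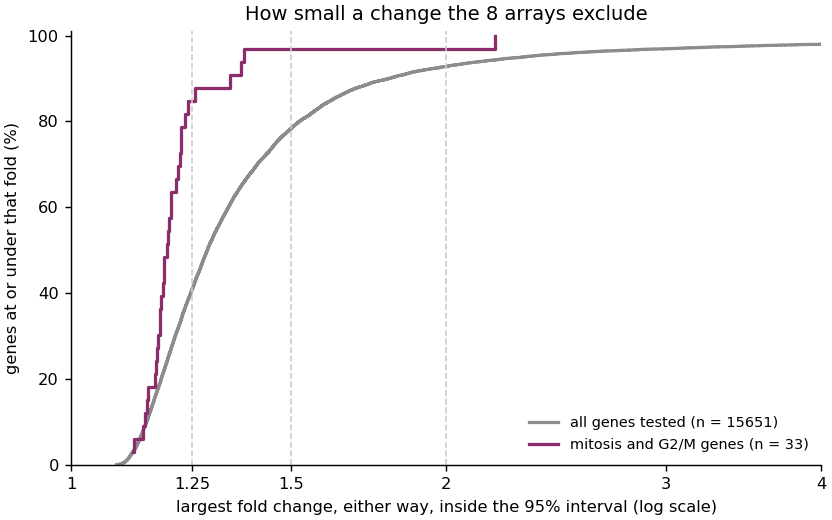
Share of genes (vertical axis, percent) whose 95% interval holds no change larger than the fold on the horizontal log axis, for the 33 members and all 15651 genes tested. At the 25% bound the members' line stands at 84.8% and the line of all genes at 40.9%, with each gene read by its brightest probe.

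The size of change that this design could call was small. Given its standard error (SE), a member needed a median estimated change of 0.29 on the log2 scale, 1.22-fold, to pass the adjusted threshold. Over all genes it was 0.35 (1.27-fold). The smallest change called in any gene was 0.20, or 1.15-fold. Of the 1804 called genes 982 had a change under 1.5-fold and 273 a change under the 25% bound.

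FOXM1 is the transcription factor that switches on G2/M genes. The level of Foxm1 was 2.72, 2.59, 2.55 and 2.76 on P20 arrays 1 to 4 and 2.81, 2.77, 2.61 and 2.69 on the P200 arrays. The groups overlapped, and the change was 0.06 ± 0.07 (SE, n = 4 per group, 95% interval -0.11 to 0.23).

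Cdk1 encodes the mitotic kinase itself and was read by a probe printed 10 times on each array. Its level was 5.62, 5.51, 5.48 and 5.63 at P20 and 5.78, 5.60, 5.53 and 5.64 at P200. P200 replicates 1 and 4 lay above all P20 arrays and the other 2 among them, with a change of 0.08 ± 0.07 and an interval of -0.09 to 0.24. The A- and B-type cyclins that activate CDK1 gave -0.05 ± 0.07 for Ccna2, 0.03 ± 0.07 for Ccnb1 and -0.06 ± 0.08 for Ccnb2. Cdc25c, whose product removes the inhibitory phosphates from CDK1, had levels of -0.49, -0.38, -0.37 and -0.34 at P20 and -0.37, -0.62, -0.53 and -0.56 at P200. Of its P200 arrays 3 lay below every P20 array and replicate 1 did not, and the change was -0.13 ± 0.07 with an interval of -0.29 to 0.04. For these 5 genes of mitotic entry, each read by its brightest probe, 0 of 5 were called. The largest change that any of these intervals allowed was 1.22-fold. A dimmer Cdc25c probe gave -0.37, with an interval of -0.59 to -0.15 (adjusted p = 0.046, limma over all probes).

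Aurka encodes Aurora A, which matures centrosomes and builds the spindle poles. Its level was 3.56, 3.43, 3.38 and 3.55 at P20 and 3.62, 3.63, 3.56 and 3.73 at P200. P200 replicate 3 lay just below P20 replicate 1, and the other P200 arrays lay above all 4 of P20. The change was 0.16 ± 0.07 with an interval of -0.0006 to 0.31, which allows an increase of at most 1.24-fold. Plk1, the Polo-like kinase that acts at centrosomes, kinetochores and the cleavage site, had levels of 4.45, 4.51, 4.46 and 4.75 at P20 and 4.60, 4.58, 4.47 and 4.75 at P200. In both groups replicate 4 was highest, the groups overlapped throughout, and the change was 0.06 ± 0.09.

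The spindle assembly checkpoint delays anaphase until all chromosomes are attached. TTK (MPS1) is the kinase that starts its signal, and Ttk had levels of 2.26, 2.48, 2.25 and 2.49 at P20 and 2.27, 2.32, 2.12 and 2.19 at P200. The groups overlapped, and the change of -0.14 ± 0.08 had an interval of -0.33 to 0.05, which allows a decrease of up to 1.26-fold. Bub1, a kinase that recruits checkpoint proteins to kinetochores, had levels of 2.96, 2.99, 2.85 and 2.99 at P20 and 2.98, 2.93, 2.74 and 2.42 at P200. P200 replicate 4 lay below the other 7 arrays, the SD was 0.06 at P20 and 0.26 at P200, and the change of -0.18 ± 0.12 had an interval of -0.45 to 0.10. Mad2l1, the inhibitor of CDC20, gave -0.08 ± 0.08, and Bub1b, which encodes BUBR1, gave 0.12 ± 0.07, each on its brightest probe. A dimmer Bub1b probe gave 0.42 (adjusted p = 0.0331, limma over all probes). The dimmer Mad2l1 probes gave -0.28 (adjusted p = 0.0674, limma over all probes) and 0.06.

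CDC20 and UBE2C are an activator and the ubiquitin-conjugating enzyme of the anaphase-promoting complex, and securin, from Pttg1, is one of its targets. Ube2c had levels of 3.67, 3.59, 3.50 and 3.71 at P20 and 3.67, 3.69, 3.55 and 3.83 at P200, a change of 0.07 ± 0.08. For Pttg1, on a probe printed 10 times, they were 4.16, 4.09, 3.94 and 4.25 at P20 and 4.05, 4.14, 4.05 and 4.09 at P200. All 4 P200 values of Pttg1 lay inside the P20 range, and the change was -0.03 ± 0.08. Cdc20 gave 0.06 ± 0.09, and the widest interval of the 3 genes reached a rise of 1.197-fold, that of Cdc20.

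The chromosomal passenger complex corrects faulty attachments through Aurora B. Its member survivin, from Birc5, had the lowest change of the members. The level of Birc5 was 3.47, 3.40, 3.40 and 3.50 at P20 and 3.49, 3.26, 3.24 and 3.00 at P200. At P200 replicate 1 matched the P20 arrays and the other 3 lay below them, and the SD was 0.05 at P20 and 0.20 at P200. The change was -0.19 ± 0.10 (adjusted p = 0.299, limma) with an interval of -0.42 to 0.04, so a decrease beyond 1.34-fold is outside it. P200 replicate 1 was the only P200 array in row 2 of the slide. Within row 1 the change of Birc5 was -0.30 and within row 2 it was 0.06. Aurkb, the kinase of the complex, had one of the 2 narrowest intervals, with levels of 1.096, 1.210, 1.126 and 1.285 at P20 and 1.204, 1.116, 1.173 and 1.130 at P200. Its change was -0.02 ± 0.06, and changes beyond 1.12-fold lie outside the interval. Cdca8, which encodes borealin, gave -0.06 ± 0.08.

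At the centromere CENP-A replaces a histone, and NDC80 and NUF2 bind spindle microtubules. Ndc80 had levels of 1.52, 1.75, 1.51 and 1.59 at P20 and 1.590, 1.607, 1.329 and 1.104 at P200. P200 replicates 3 and 4 lay below all P20 arrays and the other 2 among them, with a change of -0.19 ± 0.12 and an interval of -0.46 to 0.09. Cenpf, a large kinetochore protein, had levels of 0.04, 0.12, -0.14 and -0.39 at P20 and 0.05, 0.06, -0.22 and -0.26 at P200. The arrays of each passage spread over the same range, and the change of 0.0008 ± 0.13 had the second widest interval, -0.29 to 0.29. Nuf2 gave -0.06 ± 0.09 and Cenpa -0.03 ± 0.08.

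Mitotic kinesins push spindle poles apart (Kif11), take microtubules down (Kif2c) or act at the central spindle (Kif20a and Kif23). Kif2c had the narrowest interval of all members, with levels of -0.05, -0.16, -0.17 and -0.11 at P20 and -0.01, -0.07, 0.00 and -0.15 at P200. Its change was 0.06 ± 0.06 with an interval of -0.08 to 0.20. For Kif20a the levels were 4.13, 4.12, 4.01 and 4.24 at P20 and 4.19, 3.94, 4.02 and 4.19 at P200, with a change of -0.04 ± 0.08. With the deposited raw spot medians in place of the processed signal the change of Kif20a was 0.37, still with no call (adjusted p = 0.546, limma). Kif11 gave 0.06 ± 0.10 and Kif23 -0.08 ± 0.09.

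Spindle microtubule proteins include the bundling protein PRC1, NUSAP1, the Aurora A activator TPX2 and HMMR, which binds hyaluronan as well as the spindle. Prc1 had levels of 3.19, 3.20, 3.16 and 3.19 at P20 and 3.19, 3.19, 3.07 and 2.99 at P200. The P20 arrays of Prc1 were the closest of any member (SD 0.02), P200 replicates 3 and 4 lay below them (SD 0.10), and the change was -0.08 ± 0.06. Hmmr was the exception to the narrow intervals. Its levels were -2.82, -2.78, -3.68 and -3.55 at P20 and -2.15, -3.02, -3.13 and -2.54 at P200. It was well above background on 2 of the 4 P20 arrays and on all 4 of P200, and it entered the test through P200 alone. The change was 0.50 ± 0.28 with an interval of -0.13 to 1.13, so an increase of up to 2.19-fold is inside it. Within row 1 of the slide, with 1 P20 array, the change of Hmmr was -0.07. Within row 2, with 1 P200 array, it was 1.18, and with the row as a block it was 0.55. Tpx2 gave 0.02 ± 0.06 and Nusap1 -0.06 ± 0.08.

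Anillin, from Anln, scaffolds the contractile ring, and its level on a probe printed 10 times was 2.82, 2.84, 2.52 and 2.80 at P20 and 2.57, 2.69, 2.73 and 2.79 at P200. P20 replicate 3 was the lowest of the 8 arrays, and the change was -0.05 ± 0.09. Mki67, which coats mitotic chromosomes and is the usual proliferation marker, had levels of 4.92, 4.90, 4.68 and 4.83 at P20 and 4.87, 5.01, 4.87 and 4.87 at P200. The change was 0.07 ± 0.07 with an interval of -0.09 to 0.24, so a decrease beyond 1.07-fold and an increase beyond 1.18-fold lie outside it. Top2a, the topoisomerase that untangles sister chromatids, had levels of 3.09, 3.23, 2.91 and 2.88 at P20 and 3.04, 3.20, 3.18 and 3.07 at P200, with a change of 0.09 ± 0.09.

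**Figure D4:**
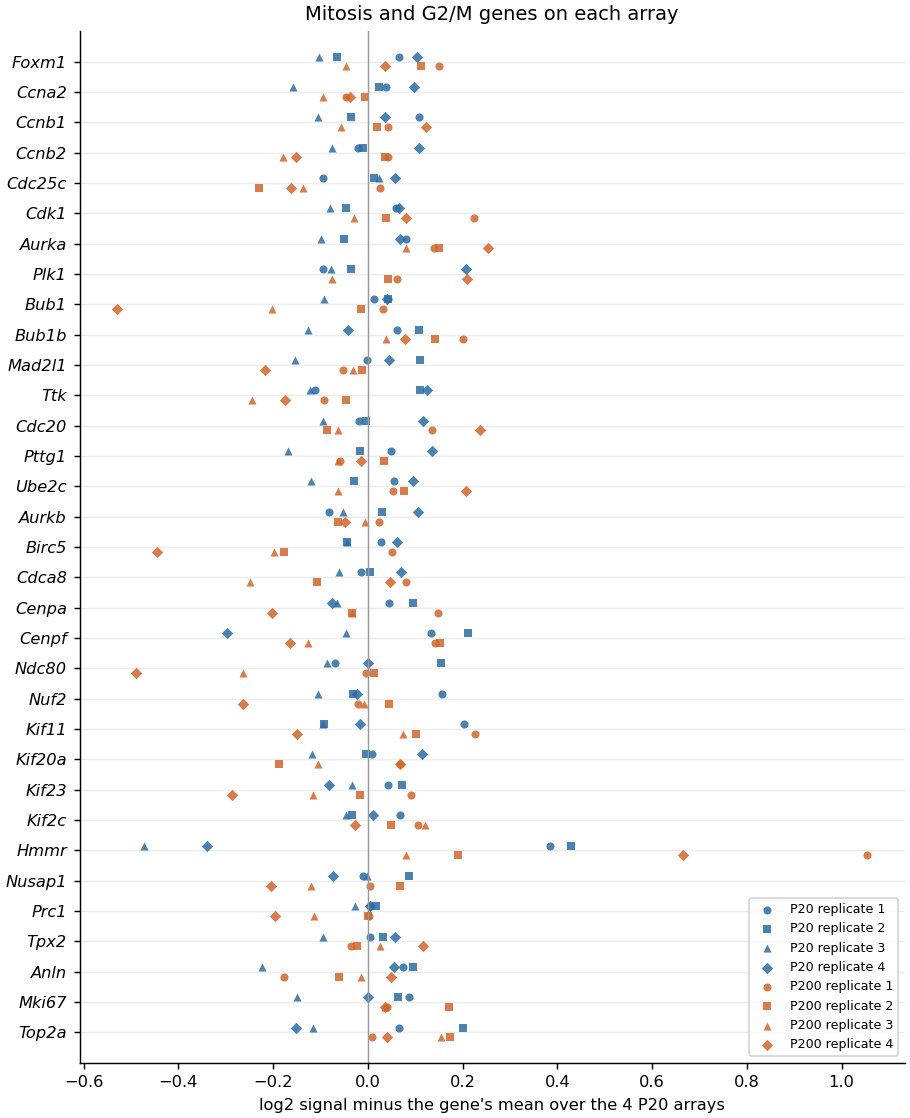
Level of each member on each array less the gene's mean over the 4 P20 arrays (log2, horizontal axis), with P20 in blue above P200 in orange and 1 marker shape per replicate number. P20 replicate 3 (blue triangles) lies left of the other P20 arrays in 24 of 33 genes, and P200 replicate 4 (orange diamonds) lies far left for Bub1, Birc5 and Ndc80.

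Many members were low on the same array. P20 replicate 3 was the lowest P20 array for 24 of the 33 members and the highest for 0, where 28.7% of all genes had their lowest P20 array there. On average over the members it lay 0.10 below the P20 mean, and over all genes 0.01 below. Within P200 the mean deviation ran from 0.08 in replicate 1 to -0.06 in replicate 3. P200 replicate 4 was the lowest P200 array for 12 of the 33 members and the highest for 8. Of all genes 31.28% had their lowest P200 array there and 40.15% their highest. Its 75th percentile of signal, 197, was the lowest of the 8 arrays. Leaving out P20 replicate 3 moved the members' median change from -0.03 to -0.05 and gave no call. The median SD of a member was 0.09 at P20 and 0.11 at P200, against 0.11 and 0.14 over all genes. The SD was larger at P200 for 18 of 33 members (54.5%), against 63.9% of all genes.

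Repeated spots give the spread within an array. For Mki67, Cdk1, Plk1, Pttg1 and Anln, each printed 10 times, the median SD between spots of 1 array was 0.04 to 0.06, and the SD between arrays of a group was 0.04 to 0.15. In all 5 genes the median SD between spots was below the SD between P20 arrays, and in all but Pttg1 (0.05 between spots, 0.04 between arrays) below that between P200 arrays. An array's value is the mean over its spots, and the median SE of that mean was 0.01 to 0.02. That SE was below the SD between arrays in both groups for all 5 genes. Plk1 on P20 replicate 1 was the widest, with an SD of 0.29 between its spots. The rows of the slide held the groups unevenly: row 1 held 1 P20 array and 3 of P200, and row 2 held 3 P20 arrays and 1 of P200. Within row 1 the median change of the members was -0.08 and within row 2 it was 0.06, against -0.01 and -0.02 over all genes. With the row as a block the members' median was -0.0008 and no member was called; the part of the row in the single changes was not tested further.

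Different probes of the same gene offered a second reading for 12 members, and every probe that passed the background filter was also fitted on its own, a fit added after the data were seen. Of the 19458 probes 10.8% were called there, and 18.9% had groups that did not overlap. Of the 49 member probes 2 were called and 3 had groups that did not overlap. The median range between the changes of a gene's probes was 0.08. It was widest for Mad2l1 (0.34), Bub1b (0.31), Ndc80 (0.28, from -0.19 to 0.09) and Cdc25c (0.24). The 4 probes of Mki67 gave 0.06 to 0.07, the closest of the 12, and 4 genes had probes of both signs.

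Bub1b, Cdc25c and Mad2l1 each had 1 probe whose groups did not overlap, and the first 30 of the 60 bases of their probes are shown as printed on the array, with no part in capitals, so that the readings can be told apart.
Bub1b, transcript base 3142: tggaataaattctttgtgcagattctgaat
Bub1b, transcript base 4253: ttagacagtggattccctaagtaaatctct
Cdc25c, transcript base 3018: gccctgaattacaaaagaaaaccagatcct
Cdc25c, transcript base 1366: tgtctgggaagttccagagtgtgatcgaga
Mad2l1, transcript base 1147: gaaggaacccaagaaatacaacaataagac
Mad2l1, transcript base 2392: tgtcctttgaaattcagataatatcgtgtt
Mad2l1, transcript base 1949: gaaaaccaggcacaattctatgtctggtcc
The transcript base is the probe's start in the transcript that the array file names, and both Bub1b probes lie in the same one. The Bub1b probes map to chr3:105115671-105115730 and chr3:105116782-105116841 on rn4, and the second Cdc25c probe to chr18:27208637-27208696, while the files give no position for the first. The 3 Mad2l1 probes map to chr4:96385766-96385825, chr4:96386480-96386539 and chr4:96392042-96392101 on rn4. Whether these bases are coding or untranslated was not resolved here.

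The probe of Bub1b at base 4253 read -1.48, -1.60, -1.65 and -1.71 at P20 and -1.17, -1.05, -1.47 and -1.08 at P200. All 4 P200 arrays lay above all 4 of P20, and the change was 0.42 ± 0.10 (adjusted p = 0.0331, limma over all probes). The brighter Bub1b probe, which stands for the gene, gave 0.12 ± 0.07 with overlapping groups. The Cdc25c probe at base 1366 read -1.91, -2.005, -1.84 and -1.60 at P20 and -2.17, -2.34, -2.10 and -2.21 at P200. All 4 P200 arrays lay below all 4 of P20, and the change was -0.37 ± 0.10 (adjusted p = 0.046, limma over all probes). The brighter Cdc25c probe gave -0.13 ± 0.07. The Mad2l1 probe at base 2392 gave -0.28 ± 0.08 with P200 below P20 throughout and no call (adjusted p = 0.0674, limma over all probes), while the other two gave -0.08 ± 0.08 and 0.06 ± 0.08.

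Over 20 alternatives the Bub1b probe kept its sign, with a change of 0.23 to 0.51, and was called in 7. The Cdc25c probe kept its sign too, from -0.42 to -0.14, and was called in 5. The Mad2l1 probe at base 2392 stayed between -0.33 and -0.23 and was called in 4. With the row of the slide as a block the adjusted p in limma was 0.123 for the Bub1b probe and 0.158 for the Cdc25c probe. For Bub1b the adjusted p in limma rose above 0.05 without any one of P20 replicates 2, 3 and 4 or P200 replicates 1, 2 and 4, to at most 0.0897. For Cdc25c it stayed under 0.05 only without P20 replicate 2 among the 8 arrays left out in turn, and was at most 0.111. The difference in change between probes of 1 gene was not tested.

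**Figure D5:**
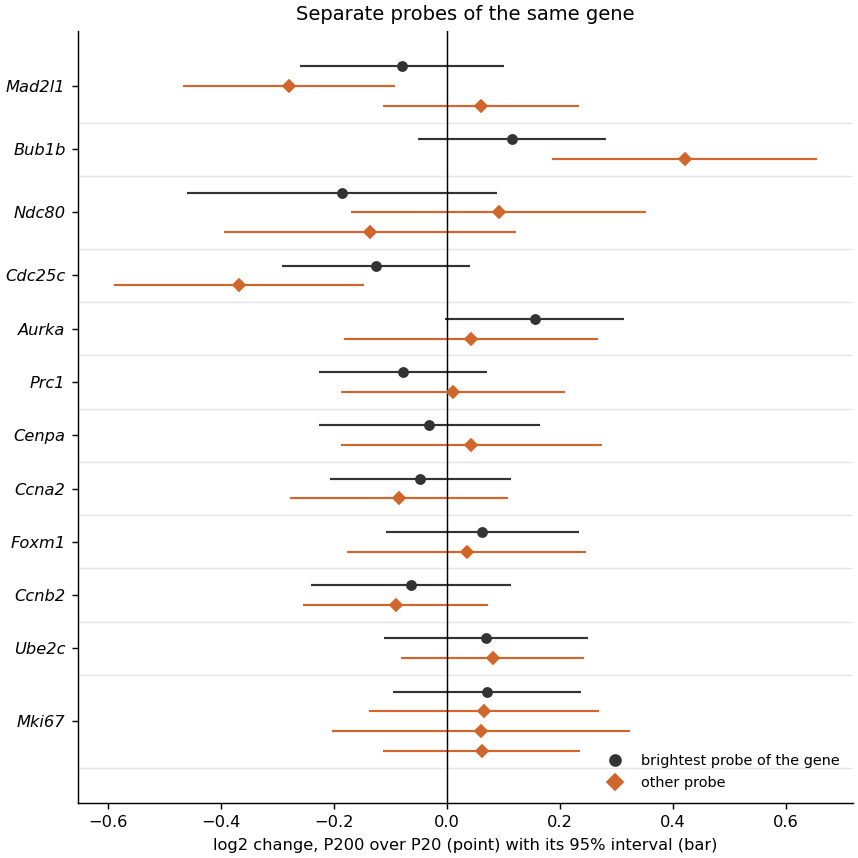
Log2 change, P200 over P20, with its 95% interval for each probe of the 12 members read by more than 1 probe; black circles are the brightest probe, which stands for the gene, and orange diamonds the others. The other probes of Bub1b (0.42) and Cdc25c (-0.37) lie apart from zero, and the 4 probes of Mki67 lie between 0.06 and 0.07.

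A wider list of 117 other mitotic genes (kinetochore and spindle proteins, kinesins, condensin and cohesin subunits, and regulators of entry and exit) shows the surroundings of the members, and 102 of them were tested. Of the 102, 3 were called higher at P200 and 0 lower (limma, adjusted p under 0.05), against 5.99% and 5.53% of all genes. An unadjusted p under 0.05 (limma) was found for 10, against 23.8% of all genes. The groups did not overlap for 7, against 19.6% of all genes. The median change of the 102 genes was -0.01. Rad21, the cohesin subunit that separase cuts at anaphase, had levels of 2.01, 2.07, 1.90 and 2.00 at P20 and 2.55, 2.48, 2.46 and 2.47 at P200. Every P200 array lay above every P20 array, and Rad21 rose by 0.49 ± 0.06 (adjusted p = 0.000869, limma).

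Cenpm, of the constitutive centromere network, had levels of 3.35, 3.37, 3.32 and 3.48 at P20 and 3.69, 3.69, 3.57 and 3.77 at P200, and rose by 0.30 ± 0.07 (adjusted p = 0.0209, limma). Ncaph2, a subunit of condensin II, had levels of 3.06, 3.09, 3.10 and 3.25 at P20 and 3.57, 3.37, 3.31 and 3.54 at P200, and rose by 0.32 ± 0.08 (adjusted p = 0.0325, limma). The groups did not overlap in either gene. With the row of the slide as a block the call of Cenpm ended (adjusted p = 0.0601, limma) and those of Rad21 and Ncaph2 did not. The calls of Cenpm and Ncaph2 ended without P20 replicate 1, 2 or 3, that of Cenpm also without P200 replicate 2, and that of Ncaph2 also without P200 replicate 1 or 4, at adjusted p-values of 0.0543 to 0.0954 in limma. Racgap1, a subunit of the centralspindlin complex with KIF23, was 3.67, 3.66, 3.47 and 3.55 at P20 and 3.91, 3.74, 3.74 and 3.86 at P200. Its groups did not overlap, and its change of 0.22 ± 0.07 did not pass (adjusted p = 0.0992, limma).

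In the wider list the groups also did not overlap, without a call, for Fam83d on chromosome 3 (0.26 ± 0.07, adjusted p = 0.0522, limma), Stmn1 on chromosome 5 (0.13 ± 0.06) and Haus8 on chromosome 16 (-0.15 ± 0.08). These 3 were named after their values were seen.

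The probes of the called genes Rad21, Cenpm and Ncaph2, and that of Racgap1, map to chromosome 7 on rn4, where 9 of the 102 tested genes of the wider list lie. All 9 had a positive change, with a median of 0.29 against -0.03 for the 92 mapped elsewhere. Over all genes tested, 936 mapped to chromosome 7 with a median change of 0.15, against -0.01 for the 13759 mapped elsewhere. Of those 936, 647 had a positive change. On chromosome 7, 28.4% of all genes were called higher at P200, and 33.3% of the 9 genes of the wider list. Elsewhere 4.54% of all genes were called higher. None of the 31 members with a position in the files mapped to chromosome 7. This comparison by chromosome was chosen after the values were seen, and no cause of it was tested.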

How the data were processed

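RNA of NR8383 cells at passage 20 and passage 200 (4 samples each) was read on single-colour Cy3 arrays of 62976 spots. The authors deposited linear spot intensity values from the scanner images, read with Agilent Feature Extraction 11.0.1.1, per the submitters' processing notes. Per the file headers, that software subtracts background array by array, and arrays were not normalized against each other. Values of the series matrix equal the spot medians of the scanner files (100%). Its P200 columns 1, 2, 3 and 4 are scanner files 2, 3, 4 and 1, and replicate numbers here are those of the scanner files.

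The 4259 control spots and outlier spots were left out, spots of a probe averaged, 84 of 45598 probes without a usable spot on some array dropped, and log2 processed signal centred on each array's 75th percentile over the rest. Probes well above background on all 4 arrays of at least 1 group were kept (19458), and the probe with the highest mean stood for each of 15651 genes. Members were matched by the file's gene name, other probes by RefSeq (GRCr8) accession (21109), symbol or synonym (7108) or the file's name (17381). P200 and P20 were compared with limma 3.58.1 (R 4.3.3, lmFit and eBayes, no covariate, two-sided, Benjamini-Hochberg over all genes, n = 4 per group). The fit was tested on simulated data with independent noise for each gene, which does not cover shifts that genes share on an array. The fold whose exclusion is counted is that of the 95% moderated interval. Map positions are those of the files on rn4. Precision is limited by the 4 arrays of a group.

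The members and lists were chosen with earlier results of these data known. Values on every array are given, for each role, for the member with the smallest unadjusted p and the one with the highest mean signal, for the 2 widest and 2 narrowest intervals, and for other mitotic genes past the test and Racgap1. Alternatives were the array median, quantile normalization, normexp (offset 50), the series matrix, other filters on dim probes, the mean of a gene's probes, eBayes with trend and robust, blocks for replicate number and slide row, and each array left out; 3 of those reported (the 75th percentile over spots, the median of probes above background, and the replicate block with the series matrix numbering) were added after the data were seen.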

Additional observations from a re-analysis of the deposited data

Results flagged for a closer look

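In 2 of 66 groups of 4 arrays the most extreme array of a member stood far from the other 3, where chance flags about 1 group in 20. For Mki67 P200 replicate 2 read 5.0055, with the nearest of the others at 4.8739. For Anln P20 replicate 3 read 2.5226, with the nearest of the others at 2.8002. P20 replicate 3 was the lowest P20 array for 24 of 33 members.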

How the results depend on the processing

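No member was called under any of 21 alternatives (18 planned, 3 added after the data were seen), over 692 fits of single members. The sign changed in 29 of those fits, in 10 members, none of them called. The members within 1.5-fold numbered 32 or 33 under all alternatives but the array median (15), where the spread between arrays was 0.352 (0.0985 as reported). Over all genes the calls numbered 1804 as reported, 812 with no filter on dim probes and 653 with the array median. The other mitotic genes called numbered 3 as reported, 0 with the array median, 5 with quantile normalization, 1 with no filter on dim probes, 6 with trend and robust, and 1 to 4 with 1 array left out. Rad21 was called in 20 of 21 alternatives, Cenpm in 12 and Ncaph2 in 12. The cause of these differences was not tested. Deviations of same-numbered arrays of the 2 groups had correlations of -0.003 to 0.281 in the scanner numbering. In the series matrix numbering the correlations were -0.111 to 0.225. A low correlation can also occur between paired samples, so these values do not decide whether the numbers pair them. With a replicate block 0 members and 1503 genes were called, the members' median change was -0.0256 and 32 lay within 1.5-fold, and 3 other mitotic genes were called, no longer including Ncaph2 (adjusted p = 0.0544, limma). With the block in the series matrix numbering 1249 genes were called. Dim signal limits Hmmr most, with 2 of 4 P20 arrays above background.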
